A study of Mus musculus with 6 samples.

Results

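Integrin genes were described across the regions whose open chromatin differed between fibroblasts carrying the FOP mutation and wild-type fibroblasts. Integrins are cell-surface receptors made of an α and a β subunit, which bind the extracellular matrix or other cells outside the cell and connect to actin through talin, kindlin and other adaptors inside it. Each α subunit pairs with a small set of β subunits, and the pair sets the ligand. In fibroblasts these receptors carry the force between collagen or fibronectin fibres and the contractile cytoskeleton.

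The 5 genes were Itga11, Itga8, Itga4, Itga9 and Itgb3, of 26 integrin subunit genes and of 21887 protein-coding genes in the GRCm38.p6 annotation. They were selected on the measured values of the study, namely their links to regions that the authors' test listed as differential, so their numbers of regions are a description and were not tested. They are not all the integrin genes with such links, since Itgb6, Itgb8 and Itgam also had linked regions. A region was linked to a gene when its midpoint lay inside the gene's span, or else when it lay outside every protein-coding span and the gene was the nearest within 100 kb.

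The study measured accessible DNA by ATAC-seq, through its cutting by a transposase, in mouse embryonic fibroblasts from E13.5 embryos grown in serum-containing medium. The FOP group was 3 libraries of genotype Acvr1R206H/+, heterozygous for the receptor change that causes fibrodysplasia ossificans progressiva, a disorder in which bone forms in soft tissue. The wild-type group was 3 libraries of genotype Acvr1+/+. Acvr1 encodes a BMP type I receptor, and the question was which chromatin the mutation opens or closes. In the authors' deposited tables stand the coordinates of 2965 regions more accessible in FOP cells and 556 less accessible in FOP cells, 84.2% and 15.8% of 3521. These lists hold no value per library, so the depth is unknown, and neither a size of change nor the spread between libraries can be given for any region. Bulk libraries also cannot separate more cells with an open site from a site more often open in each cell, and without levels of marker genes the fibroblast label could not be checked.

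In all, 15 regions were linked to the 5 integrin genes. Of these, 13 were more accessible and 2 less accessible in FOP cells, a gained share of 86.7% beside 84.2% over both lists. At least 1 more accessible region was linked to 4 of the 5 genes (Itga11, Itga8, Itga4 and Itga9), and 7.27% of all protein-coding genes had one. At least 1 less accessible region was linked to Itga4 and Itgb3, and 1.99% of all protein-coding genes had one. The rule chose the genes by these links, so nothing is read from the difference. None of the 15 regions was also linked to another gene. Inside gene spans lay 7 of them, and the other 8 lay outside, while 58.0% of all 2763 linked regions lay inside a span.

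**Figure D1:**
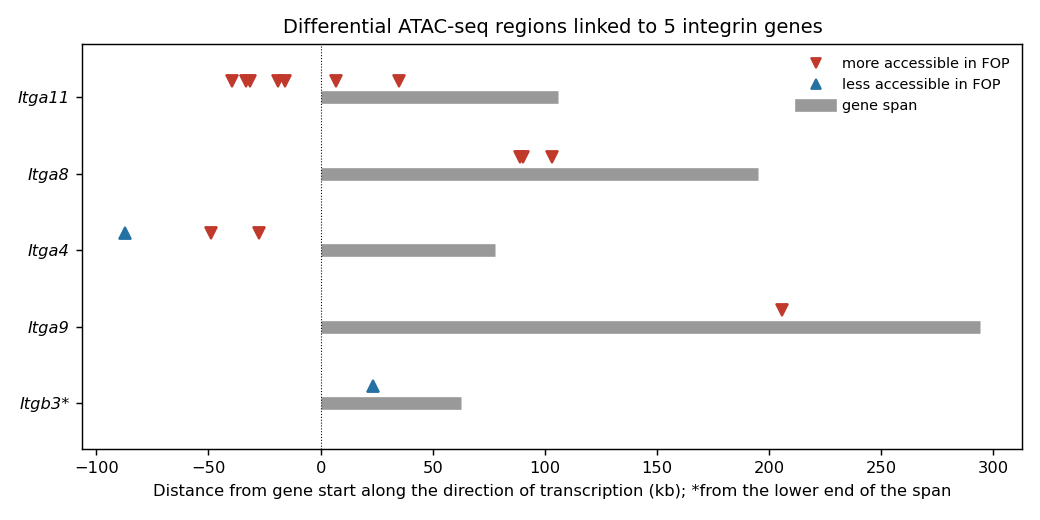
Position of each differential region along the 5 integrin genes, as the distance of the region's midpoint from the gene start in kb in the direction of transcription; for Itgb3, whose strand the annotation used does not give, distance is from the lower end of the span. Grey bars are gene spans, downward red triangles are regions more accessible in FOP cells and upward blue triangles less accessible ones; Itga11 has 5 regions before its start and 2 inside, Itga8 has 3 close together inside, and Itga4 has 3 before its start, of which the farthest is less accessible.

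The RefSeq promoter table (GRCm38.p6) held 4 of the 5 genes, all but Itgb3, and no listed region overlapped their promoter windows. The 250 bases before the start are printed for the 3 genes with more than 1 region. They are given 5′ to 3′ on the gene's own strand, with CG dinucleotides, the sites of DNA methylation, in capitals. The windows are chr9:62677605-62677854 on the plus strand for Itga11, chr2:12301945-12302194 on the minus strand for Itga8 and chr2:79255176-79255425 on the plus strand for Itga4.
Itga11: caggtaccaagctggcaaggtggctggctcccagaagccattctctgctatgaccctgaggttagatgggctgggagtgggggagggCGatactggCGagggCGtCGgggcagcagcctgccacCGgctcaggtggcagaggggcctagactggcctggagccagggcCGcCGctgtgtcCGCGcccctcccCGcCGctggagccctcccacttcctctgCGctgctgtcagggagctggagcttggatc
Itga8: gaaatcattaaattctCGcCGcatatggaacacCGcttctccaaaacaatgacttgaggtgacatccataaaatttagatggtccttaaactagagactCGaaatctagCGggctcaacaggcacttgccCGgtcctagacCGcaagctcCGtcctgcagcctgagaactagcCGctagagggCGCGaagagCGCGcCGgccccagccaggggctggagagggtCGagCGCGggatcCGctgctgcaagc
Itga4: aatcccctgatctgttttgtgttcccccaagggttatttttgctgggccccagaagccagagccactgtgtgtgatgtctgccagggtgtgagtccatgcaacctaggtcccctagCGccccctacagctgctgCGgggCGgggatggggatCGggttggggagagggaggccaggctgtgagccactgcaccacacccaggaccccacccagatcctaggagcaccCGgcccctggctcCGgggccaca

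Of these windows that of Itga8 held the most CG dinucleotides, 18, against 12 for Itga11 and 6 for Itga4, and the median over 21263 promoters of protein-coding genes was 10. Itga11 had the highest GC content of them at 68.4%, Itga4 had 64.0% and Itga8 56.4%, with a median of 55.6% over the same promoters. The letters GGAATG, read by TEAD factors that act with YAP, were absent from all 3 windows on both strands, as were TGANTCA, read by AP-1, and GGCGCC, a motif bound by BMP-activated SMADs. Over all promoters of this length, 11.7% held the first, 6.13% the second and 12.3% the third. Among integrin promoters in the table, GGAATG was found at Itga10 and Itgb1, TGANTCA at Itgax and GGCGCC at Itgb1. A match or its absence describes these letters in this window only. The nearest listed region lay 6.8 kb from the start of Itga11, 88.9 kb from that of Itga8 and 27.5 kb from that of Itga4, in each case a more accessible one.

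Itga11 (chr9:62677855-62783979, plus strand) encodes the α11 subunit, which pairs with β1 into a receptor for fibrillar collagen and is typical of mesenchymal cells. It had 7 regions, all of them more accessible in FOP cells. At least 7 more accessible regions were linked to 0.0183% of protein-coding genes, which is 4 genes. The first 5 lay between the gene and its neighbour Coro2b, at 39.7, 33.1, 31.4, 18.9 and 16.0 kb before the start. The other two lay inside the gene, 6.8 and 34.8 kb past the start, at 6.4% and 32.7% of its 106 kb span. The region closest to the start was chr9:62684239-62685047. No region of either list lay in the rest of the span or within 500 kb on either side beyond these 7, and the nearest less accessible region was 616 kb from the outermost of them.

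The Itga11 regions formed subgroups. Gaps between neighbouring midpoints were 6.56, 1.74, 12.45, 2.92, 22.80 and 27.96 kb from the most upstream region onwards. The gaps widened inside the gene, and the upstream regions stood as a group of 3 and a group of 2. Between these groups lay Gm39353, a lncRNA gene of 4.63 kb (chr9:62649717-62654345). It was nearer to each of the 5 upstream regions than Itga11 was, at 11.5, 5.0, 3.2, 4.6 and 7.5 kb. With lncRNAs and pseudogenes admitted to the linking, Itga11 therefore kept 2 of its 7 regions.

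From first to last midpoint the 7 Itga11 regions spanned 74.4 kb. Over the list of more accessible regions there were 2845 runs of 7 consecutive regions on a chromosome, which overlap one another. Their median extent was 3830 kb, the run at Itga11 was the shortest, and the next shortest was 96.8 kb. The 5 upstream regions alone spanned 23.7 kb, also the shortest of 2885 runs of 5, and the next was 39.9 kb. Since Itga11 was chosen for its many regions, these ranks describe the list and test nothing.

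**Figure D2:**
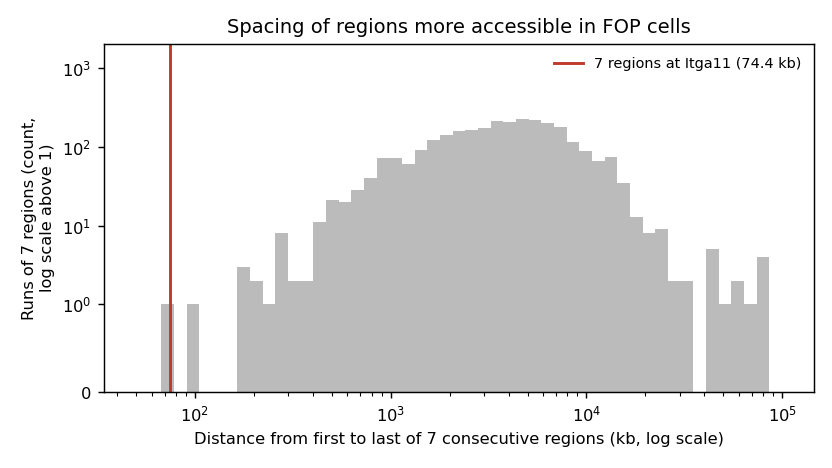
Distance from the first to the last of 7 consecutive regions more accessible in FOP cells, in kb on a log axis, for all 2845 overlapping runs on a chromosome; the vertical axis counts runs on a log scale above 1. The red line marks the 7 regions at Itga11 at 74.4 kb, left of the median of 3830 kb.

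Itga8 (chr2:12106632-12301985, minus strand) encodes the α8 subunit, a partner of β1 that binds the RGD motif of nephronectin and fibronectin and is needed for kidney development. Its 3 regions were more accessible in FOP cells and lay inside the gene. At least 3 more accessible regions were linked to 0.722% of protein-coding genes. They lay 89.0, 90.3 and 103.0 kb past the start, between 45.5% and 52.7% of the 195 kb span. Around the middle of the gene they therefore covered 14.1 kb, with gaps of 1.36 and 12.71 kb. Of 2925 runs of 3 regions in the list, 19 were shorter. The region nearest the start, chr2:12212427-12213630, was 1204 bp wide and its neighbours were 417 and 458 bp. No other listed region lay in the rest of the gene or within 500 kb of it.

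Itga4 (chr2:79255426-79333114, plus strand) encodes the α4 subunit, which pairs with β1 or β7 and binds VCAM1 and an alternatively spliced part of fibronectin. It was linked to regions of both directions, as were 0.366% of protein-coding genes. More accessible regions lay 27.5 kb (chr2:79227535-79228300) and 48.8 kb (chr2:79206274-79206922) before the start. A less accessible region lay 87.2 kb before it (chr2:79167977-79168569). No region lay inside the gene. The upstream interval to the next protein-coding gene, Ube2e3, is 327 kb long, so these regions had no other protein-coding gene within reach of the limit.

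The less accessible region of Itga4 was the farthest of the 15 from its gene and the closest to the 100 kb limit. Just outside the limit lay another less accessible region, 133 kb from Itga4 in the same interval, which was linked to no gene. Directions thus ran in order along the interval, with 2 less accessible regions at the far side and 2 more accessible ones nearer to Itga4, 38.3 kb apart at the change. The region 27.5 kb upstream lay 3.1 kb from the lncRNA gene Gm39866, the one 48.8 kb upstream lay 24.4 kb from it, and the less accessible region at 87.2 kb lay 6.6 kb from the pseudogene Gm14465. With genes of every type admitted to the linking, or with links limited to 10 kb, Itga4 had 0 more and 0 less accessible regions. Beyond the gene's far end the nearest listed regions belonged to Itprid2, at 223 kb (less accessible) and 252 and 333 kb (more accessible).

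Itga9 (chr9:118606709-118901003, plus strand) encodes the α9 subunit, the closest relative of α4, which pairs with β1 and binds tenascin-C, osteopontin and other ligands. It had 1 region, chr9:118812127-118812610, more accessible in FOP cells. This lay inside the gene, 205.7 kb from the start of the span, at 69.9% of its 294 kb. The promoter table gives for Itga9 a start that lies 105.0 kb inside the span, and the region was 100.7 kb from that start. It was isolated, as the next more accessible region lay 791 kb away. Itga9 and Itga11 are both on chromosome 9 but far apart, and Itga8 and Itga4 are likewise distant on chromosome 2.

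Itgb3 (chr11:104608000-104670476) encodes the β3 subunit, which pairs with αv or αIIb, binds vitronectin and fibrinogen, and is best known from platelets and osteoclasts. Its 1 region, chr11:104631347-104631739, was less accessible in FOP cells. It lay inside the gene, 23.5 kb from the lower and 38.9 kb from the upper end. No other listed region lay within 500 kb of the gene, and the nearest more accessible region was 978 kb away. At 393 bp it was the narrowest of the 15 regions, and 8.27% of the less accessible list was narrower.

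Region widths spread widely in the group. They ran between 393 and 1560 bp with a median of 595 bp, and the medians of the whole lists were 572 bp for more accessible and 610.5 bp for less accessible regions. The widest was the Itga11 region 31.4 kb before the start (chr9:62645691-62647250). At 1560 bp it was wider than 99.8% of the more accessible list. The widest Itga8 region followed at 1204 bp, wider than 98.0% of it. Each of these wide regions sat next to a close neighbour of the same direction, 1.74 and 1.36 kb away. Consecutive more accessible regions of the same integrin gene had 9 gaps, of which 4 were under 10 kb, and their median was 12.4 kb. Over the whole list 6.15% of 2945 gaps were under 10 kb and the median gap was 306 kb, but regions of the same gene are near each other by the linking rule.

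**Figure D3:**
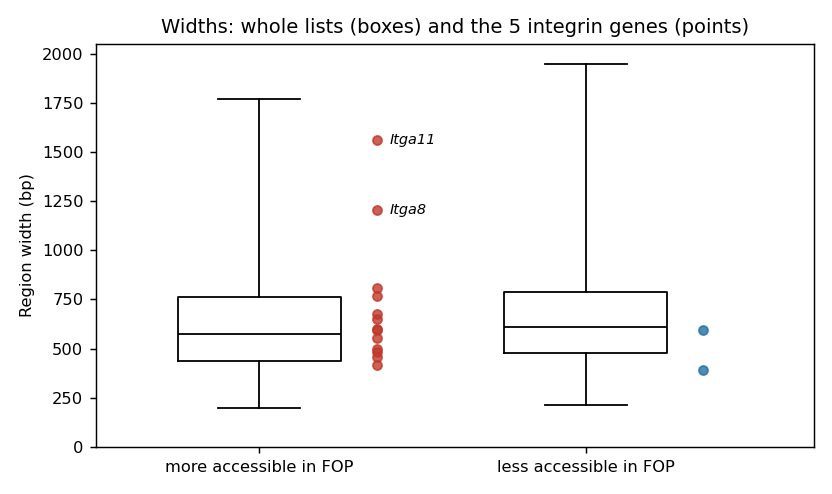
Width in bp of differential regions, by direction in FOP cells: boxes show the quartiles and median of each whole list with whiskers to the lowest and highest value, and points are the 13 more accessible and 2 less accessible regions of the 5 integrin genes. Most points sit within or near the boxes, and the Itga11 region of 1560 bp and the Itga8 region of 1204 bp stand above them.

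Across the whole integrin family, 6 of 26 genes had a more accessible region and 3 had a less accessible one. These are 23.1% and 11.5% of the family, beside 7.27% and 1.99% of all protein-coding genes, and the median per gene was 0 in each. Outside the 5 genes above, 2 of 21 integrin genes had a more accessible region and 1 had a less accessible one, 9.52% and 4.76%. The 5 genes were chosen by their links, so nothing is read from the difference to all genes in either set of shares. Itgb6 and Itgb8, whose products pair with αv and activate latent TGF-β, had 1 more accessible region each, 14.8 and 13.0 kb past the far end of the gene. Itgam, which encodes the αM subunit of macrophages and neutrophils, had 1 less accessible region, 11.6 kb before the start. Whether blood cells in the cultures had a part in that region was not tested. The other 18 genes had none. For 3 of those, a listed region lay within 100 kb but belonged to another gene: 51.5 kb from Itga5 (linked to Copz1), 53.4 kb from Itgae (Camkk1) and 78.5 kb from Itgax (Itgam).

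**Figure D4:**
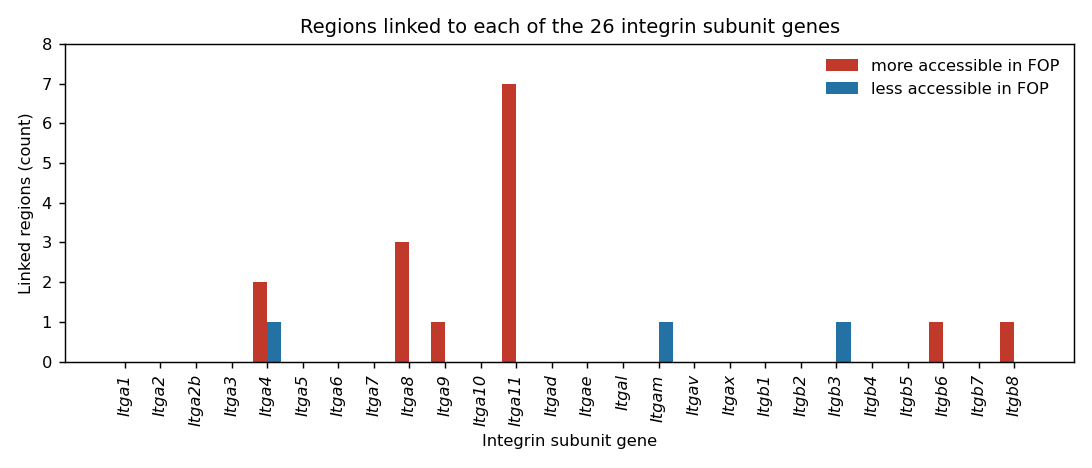
Number of linked regions for each of the 26 integrin subunit genes, with bars in red for regions more accessible and in blue for regions less accessible in FOP cells. Itga11 stands highest with 7, followed by Itga8 with 3 and Itga4 with 2 more accessible regions, and 18 genes have no bar.

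Linked regions were also listed by class of subunit. Each class holds few genes, and the genes described above were chosen by their links, so nothing is read from differences between classes. Over all protein-coding genes, 7.27% had a more accessible region and 1.99% a less accessible one. Among the 4 collagen-binding α genes Itga11 had 7 more accessible regions, and Itga1, Itga2 and Itga10 had none, with their nearest listed regions 250 kb, 125 kb and 317 kb away. Among the 4 RGD-binding α genes Itga8 had its 3, and Itga5, Itgav and Itga2b had none. The laminin-binding genes Itga3, Itga6 and Itga7 had none. Of the pair Itga4 and Itga9 both had more accessible regions. Among the 5 leukocyte α genes Itgam alone had a region, and among the 8 β genes Itgb3, Itgb6 and Itgb8 did. The β partners of the listed α subunits had no linked region, as the nearest lay 265 kb from Itgb1 and 357 kb from Itgb7. Itgav and Itga2b, the partners of Itgb3, had their nearest at 465 and 732 kb. Acvr1 itself had no linked region.

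Longer genes had linked regions more often. The 26 integrin genes had a median span of 56.4 kb, against 17.2 kb over all protein-coding genes. Of protein-coding genes under 50 kb, 3.16% had a more accessible region, as did none of the 12 integrin genes in that class. The share was 11.4% for genes of 50 to 100 kb, where 2 of 8 integrin genes had one, and 23.8% for genes of 100 to 200 kb, where 3 of 5 did. In the class of 200 to 400 kb it was 40.4%, and the 1 integrin gene there, Itga9, had one. All 3 integrin genes with a less accessible region were of 50 to 100 kb, a class in which 2.94% of genes had one. The part of span length in the family's counts was not tested.

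Genes for integrin ligands, adaptors and kinases were counted in the same way. These lists are selections and do not hold every such gene. The ligand list has no collagen gene, although α11 binds collagen, and of the laminin genes it has only some α chains. Of 29 ligand genes 10 had a more accessible region (34.5%) and 1 had a less accessible one (3.45%), with 7.27% and 1.99% over all protein-coding genes and a median per gene of 0. The lists were chosen with earlier results of these data known, so nothing is read from the difference between these shares. Npnt, which encodes the α8 ligand nephronectin, had 1 more accessible region inside it. Fn1, encoding fibronectin, had 1 at 27.1 kb outside the gene. Svep1, encoding a matrix protein that binds the α9 subunit, had 2 inside it. Spp1, encoding osteopontin, had 1 at 43.8 kb. Tnn, encoding tenascin-W, and Lama4, encoding a laminin chain, had 2 each, all inside the genes. Nid1, a basement membrane gene, had the less accessible region. Fgg, encoding a chain of the β3 ligand fibrinogen, had 1 more accessible region 18.5 kb outside the gene. Postn and Thbs1 had 1 each, 22.5 and 27.0 kb outside the gene, and Lama2 had 1 inside it. For Vcam1, Tnc and Vtn, which encode ligands of α4, α9 and β3 receptors, no region was linked. The nearest lay 97.8, 260.0 and 579 kb away. That of Vcam1 was within the 100 kb limit but lay inside or nearer to another protein-coding gene.

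Of 25 genes for proteins that activate integrins or tie them to actin, 4 had a more accessible region (16.0%, beside 7.27% of all protein-coding genes) and 2 a less accessible one (8.0%, beside 1.99%). Tns3, a tensin that binds β subunit tails, had 3 of each, with the 3 less accessible ones inside the gene and the more accessible ones spread over 1 inside and 2 outside it, 11.6 and 39.3 kb away. Kank1, whose product binds talin, had 2 more accessible regions. Kank4 and the talin gene Tln2 had 1 each, and Parvb, a parvin of the complex with integrin-linked kinase, had 1 less accessible region. Of 20 kinase and scaffold genes 3 had a more accessible region (15.0%, beside the same 7.27%) and 0 a less accessible one. These were Nedd9, a scaffold downstream of focal adhesion kinase, with 3, and the Rac regulators Dock1 and Arhgef6 with 1 each. The focal adhesion kinase gene Ptk2, the talin gene Tln1 and the vinculin gene Vcl had none. The median span was 28.8 kb for the ligand genes and 41.9 kb for the adaptor genes, against 17.2 kb over all protein-coding genes. For the kinase and scaffold genes it was longer still and fell in the class of 50 to 100 kb. In that class 11.4% of protein-coding genes had a more accessible region. The part of span length in the shares of these lists was not tested. As with the ligand genes, nothing is read from the difference to all genes, since earlier results were known when the lists were chosen.

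Other genes with the same numbers of linked regions were looked up, with the extent from first to last midpoint as the measure of likeness. There were 2 genes with 7 more and 0 less accessible regions like Itga11, Dclk1 and Wwox, and their regions extended over 281 and 685 kb, against 74.4 kb at Itga11. With 3 and 0, as at Itga8, there were 89 genes, of which Ahr (16.0 kb), Cib4 (9.78 kb) and Myh10 (9.51 kb) came nearest to its 14.1 kb. The 2 more and 1 less accessible regions of Itga4 were matched in number by 15 genes. Nearest to its 59.6 kb were Bag3 at 64.3 kb, Rai14 at 70.0 kb and Shb at 42.5 kb. For genes with 1 region the span length was compared. The counts of Itga9 were shared by 1087 genes, among which Asap1, Stau2 and Ncam1 were closest in length, and those of Itgb3 by 330 genes, among which Araf, Mroh9 and Zdhhc21 were.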

How the data were processed

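ATAC-seq was done on 3 FOP and 3 wild-type fibroblast libraries. The authors deposited a pair of region lists with chromosome, start and end in base pairs, without read counts, fold changes or p-values, and the direction is taken from each list's name. Per the submitters' processing notes, the builds were mm10 and GRCm38, and the tools MACS2, DESeq2, featureCounts, Bowtie2, Trimmomatic, SAMtools and bedtools. The sources used here give no versions, thresholds, duplicate handling or transposase offset, and do not say whether peaks were called per library. Whether replicates came from separate embryos is not said.

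Positions were turned to 1-based and linked to RefSeq GRCm38.p6 gene spans as described, with Python 3.11.15 and pandas 2.3.3. Strand came from the RefSeq promoter table, so exon and intron positions are not given. The linking recovered 200 of 200 planted links in simulated data. These were planted at genes with no close protein-coding neighbour before them and no overlapping one. Competing neighbours, overlapping spans and the 100 kb limit were therefore not checked. Region sequences were not analysed here. No statistical test was run, since the lists chose the genes. The genes and lists were chosen with earlier results of these data known. Genes named are the 5 genes, other integrin genes with regions, list genes with regions, neighbours, like genes and Acvr1. The plan was to name list genes with at least 2 regions and up to 4 others per list, and the further ligand genes were added afterwards. Genes named as having no region were chosen after their values were seen.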

Additional observations from a re-analysis of the deposited data

How the results depend on the processing

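Under 7 other ways of linking, the 13 more and 2 less accessible regions of the 5 integrin genes, and the 6 and 3 integrin genes with them, moved by over 1.5 times in these cases. With links within 10 kb there were 6 and 1 regions, at 3 and 1 integrin genes, and the shares of all protein-coding genes with a region were 5.03% and 1.47%, against 7.27% and 1.99% by the main rule. With genes of every type admitted there were 6 and 1 regions, at 4 and 1 integrin genes, and the shares of all genes were 4.43% and 1.07%. Of these counts the 4 integrin genes, in place of 6, did not differ by over 1.5 times. With regions of at least 500 bp there was 1 less accessible region at the 5 genes: Itga8 had 1 more accessible region in place of 3, and Itga9 and Itgb3 had 0 in place of 1. Itga11 had 2 regions within 10 kb, 2 with genes of every type and 4 with regions within 10 kb merged. Itga4 had 0 and 0 regions within 10 kb and with genes of every type, in place of 2 and 1. Grouping each gene's regions by gaps of at most 10 kb, chosen after seeing the data, also gave 4 at Itga11. The nearest gene at any distance added a second less accessible region to Itga4. Linking by the nearest gene end or by any base of the region gave the main counts. No paired analysis was possible because the lists carry no value per library, and for the same reason no library could be left out, no stricter cutoff applied and no depth given.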
